A study of Xenopus tropicalis with 45 samples.

Results

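Binding of Hdac1 was set against acetylation of histone H3 in untreated wild-type Xenopus tropicalis whole embryos at st10.5, the early gastrula stage. Each was a ChIP-seq peak list built by the authors from 2 replicates, 1 list for an antibody against HDAC1 and 1 for an antibody that reads acetylated lysines of H3 together (pan-H3Kac). Every peak of both lists was taken: 22566 distinct Hdac1 peaks and 27414 pan-H3Kac peaks, 49980 of the 440937 peaks in the 13 lists read here. The other lists served as comparisons, namely Hdac1 of untreated whole embryos at st8 and st9, Hdac1 of whole embryos in TSA and in DMSO at st9 and st10.5 (1 library each), Hdac2 of untreated embryos at st9 and st10.5 (1 library each), Sox3 at st9, and pan-H3Kac in explants dissected from DMSO-treated embryos, the animal cap (AC, prospective ectoderm) and the vegetal mass (VG, prospective endoderm). RNA-seq was used from AC and VG explants at st10.5 of embryos kept in 100 nM trichostatin A (TSA) from the 4-cell stage, in DMSO, or in water, with 2 libraries of each. All these embryos came from in vitro fertilization and no allele was altered in any group. Since a whole gastrula holds all germ layers, an Hdac1 peak and a pan-H3Kac peak on the same bases in the same cells cannot be told apart from peaks of different cells.

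Hdac1 is a class I histone deacetylase, the catalytic subunit of corepressor complexes such as NuRD, Sin3 and CoREST, and it removes acetyl groups from lysines of the histone tails. H3 acetylation is laid down by acetyltransferases such as Ep300 and marks active promoters and enhancers. Hdac1 has no sequence-specific DNA binding of its own and is brought to chromatin by transcription factors. At the gastrula stage the zygotic genome is active and ectoderm, mesoderm and endoderm turn on separate sets of regulatory genes.

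The study designed ChIP-qPCR primers for a set of loci, and the loci that differ in which list reached them are shown here as sequence. Primers are given in lower case throughout, 5′ to 3′, and their exact place relative to the peaks was not located. Each peak was counted for its nearest gene only, up to 10 kb from the summit. The first 3 loci, erfl, gdnf and insm2, had Hdac1 peaks and no pan-H3Kac peak within 10 kb, fgf5 had a pan-H3Kac peak and no Hdac1 peak within that distance, and foxi4.2, snai1 and hoxb3 had the most Hdac1 peaks of the loci with both.
erfl forward: attagcactgggacggctct
erfl reverse: gctgtcccagtgctgattatag
gdnf forward: gcacaggatatgggccattg
gdnf reverse: cagggcagccactggtgtat
insm2 forward: agtgtcccgttgagtttgct
insm2 reverse: ctgggagatggtgctgatcg
fgf5 forward: ttagcatgcagagaagaggc
fgf5 reverse: tattacattctcgcacggct
foxi4.2 forward: agggtaacggtgcgcacaca
foxi4.2 reverse: gcagtgccagacaggggaag
snai1 forward: cgcaccattagcaattcatga
snai1 reverse: ggaagggcaatctaaacaag
hoxb3 forward: gtagatctgtcagggagaaa
hoxb3 reverse: gccattgattgagatccgta

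At these loci the peaks themselves differed in strength (coordinates are on v10.0 of the genome). In the span of erfl, an ETS family gene, an Hdac1 peak at chr7:106804848-106805731 had a fold enrichment over input of 17.8 and a second at chr7:106834326-106835007 had 8.27. The peak over insm2, a zinc finger gene, at chr8:108144970-108146675 had a fold of 16.0. The peak 9190 bp from gdnf, a neurotrophic ligand, had a fold of 7.14. None of these 4 Hdac1 peaks overlapped pan-H3Kac of whole embryos, AC or VG, and all 4 overlapped Hdac2. The only peak counted for fgf5, a growth factor gene, was a pan-H3Kac peak at chr1:95523162-95524291 with a fold of 5.18, which overlapped an Hdac2 peak but no peak of the untreated Hdac1 list. In the unreplicated Hdac1 list of DMSO-treated embryos a peak of fold 3.31 overlapped it, and the nearest peak of the untreated Hdac1 list, with a fold of 7.30, lay 27226 bp from the fgf5 span. Around foxi4.2, an ectodermal forkhead gene, 9 Hdac1 and 7 pan-H3Kac peaks lay within 10 kb, and around snai1, a mesodermal repressor, 9 and 5.

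More Hdac1 peaks overlapped H3 acetylation in the whole gastrula than did not, by any shared base. About as many pan-H3Kac peaks lacked a peak of the untreated Hdac1 list as overlapped one. Of the Hdac1 peaks, 13479 (59.7%, 95% Wilson interval 59.1% to 60.4%) overlapped a pan-H3Kac peak by at least 1 bp and 9087 (40.3%) overlapped none. When the Hdac1 summit itself had to lie in the pan-H3Kac peak, the share was 46.2%, so the larger part then lay outside. Of the pan-H3Kac peaks, 13130 (47.9%, 47.3% to 48.5%) overlapped an Hdac1 peak and 14284 (52.1%) did not. These intervals cover counting error only, and since each antibody has 1 list there is no replicate check of any share of peaks and no test was made. The 2 lists were also kept by unlike rules, IDR for Hdac1 and presence in both replicates for pan-H3Kac. Of the 14284 pan-H3Kac peaks, 48.9% overlapped the larger, unreplicated Hdac1 list of DMSO-treated embryos at st10.5. With or without Hdac1 refers below to the untreated list only. With or without pan-H3Kac or acetylation refers to peaks listed in whole embryos, unless explants are named. Hdac1 peaks covered 20.2 Mb and pan-H3Kac peaks 36.0 Mb, 1.398% and 2.48% of the 1449 Mb of the 10 chromosomes, and 11.6 Mb lay in both. That shared length was 57.4% of the Hdac1 bases and 32.3% of the acetylated bases. After merging, 11849 of 35220 regions (33.6%) held both, 9087 (25.8%) Hdac1 alone and 14284 (40.6%) pan-H3Kac alone. Over the 10 chromosomes the shares hardly varied, at 57.9% to 61.9% for Hdac1 peaks and 43.3% to 50.1% for pan-H3Kac peaks.

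Some acetylated domains held several Hdac1 peaks. An acetylated peak with Hdac1 had 1 Hdac1 peak in 11908 cases, 2 in 944, 3 in 189 and 4 or more in 89. The maximum was 9, in a 15291 bp pan-H3Kac peak at chr6:88982344-88997634 with rreb1, a zinc finger transcription factor gene, as the nearest gene. The widest acetylated peak, 21689 bp on chromosome 1 near znf608, held 7 Hdac1 peaks with folds of 4.28 to 11.8. Among shorter domains, 6500 bp of chromosome 5 by atg5 and prdm1, the second a repressor of the SET domain family, held 7.

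The summits of the 2 lists lay apart even where the peaks overlapped. The median distance between the Hdac1 summit and the nearest summit of an overlapping pan-H3Kac peak was 330 bp (quartiles 191 and 515 bp). Only 5.74% of the 13479 Hdac1 peaks with acetylation had the summits within 50 bp and 11.7% within 100 bp, and 73.8% had them within 500 bp. The commonest 50 bp class was 300 to 350 bp, with 9.48% of these peaks. For comparison, the summit of Hdac2, the paralog found in the same complexes, lay a median 54 bp from the Hdac1 summit over all 22566 Hdac1 peaks, and 72.8% were within 100 bp. Although the summits were offset, 10429 Hdac1 summits (77.4% of the Hdac1 peaks with acetylation) lay inside a pan-H3Kac peak.

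**Figure D1:**
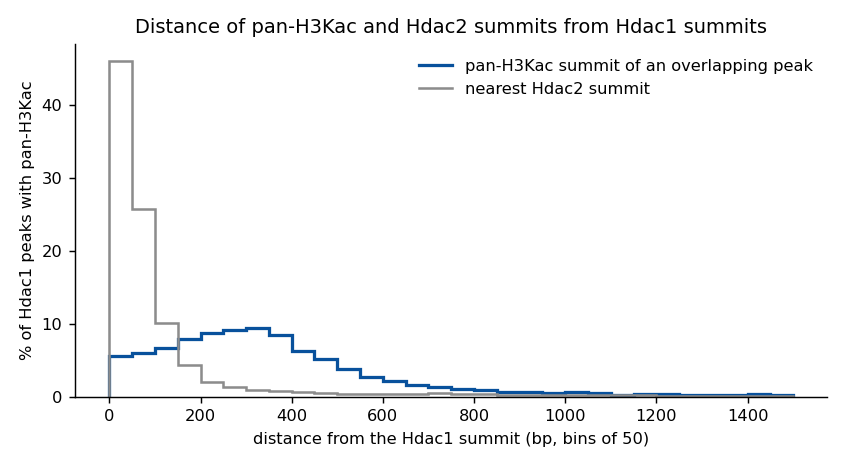
Distance in bp from the Hdac1 summit to the summit of an overlapping pan-H3Kac peak (blue) and to the nearest Hdac2 summit (grey), as the percentage of the 13479 Hdac1 peaks with pan-H3Kac in bins of 50 bp. The acetylation curve is highest at 300 to 350 bp with 9.48% of peaks, and the Hdac2 curve is highest in the first bin with 46.1%.

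The offset varied with position and width. Within 1 kb of an annotated gene end the median distance was 232 bp over 6111 Hdac1 peaks, against 416 bp over 7362 peaks farther away. Under 500 bp of pan-H3Kac width it was 238 bp, and it was 264.5 bp at 500 to 1000 bp, 290.0 bp at 1000 to 2000 bp, 407 bp at 2000 to 4000 bp and 980.0 bp above 4000 bp. When the Hdac1 peaks were cut at the quartiles of their fold, it was 392 bp in the highest class, against 293.5 bp in the lowest, while the median width of the acetylated partner was 1629 bp and 1260 bp.

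Peaks of each list were stronger and wider where the other was present, more so for acetylation. The median fold enrichment of pan-H3Kac peaks was 7.85 (quartiles 5.08 and 13.5) with Hdac1 and 4.5 (3.73 and 6.22) without it, a ratio of 1.74, and the median widths were 1214 bp and 708 bp. For Hdac1 peaks the median fold was 6.01 (4.94 and 7.78) with pan-H3Kac and 5.38 (4.61 and 6.72) without, a ratio of 1.12, and the widths were 859 bp and 605 bp. In both lists the quartile ranges of the folds with and without the other overlapped. Across deciles of the pan-H3Kac list by fold, the share with Hdac1 was 19.5% in the lowest and 82.2% in the highest. In the Hdac1 list the share with pan-H3Kac was 52.1% in the lowest decile and 73.6% in the highest.

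Shares also varied with width. The share was 81.5% in the widest decile of Hdac1 peaks, against 26.1% in the narrowest, and 84.9% in the widest decile of pan-H3Kac peaks, against 24.3% in the narrowest. With peaks classed by the quartiles of width, among the narrowest pan-H3Kac peaks 46.2% of those above the median fold of the list overlapped Hdac1, against 22.9% of those up to it, and among the widest 77.6% against 45.7%. In the width classes of Hdac1 peaks the same split by fold gave smaller gaps, 36.4% against 33.5% in the narrowest and 81.2% against 75.7% in the widest. Where 2 peaks overlapped, their folds hardly followed each other: Spearman's rho was 0.08 over the 13479 pairs, which share the input and the mapping.

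**Figure D2:**
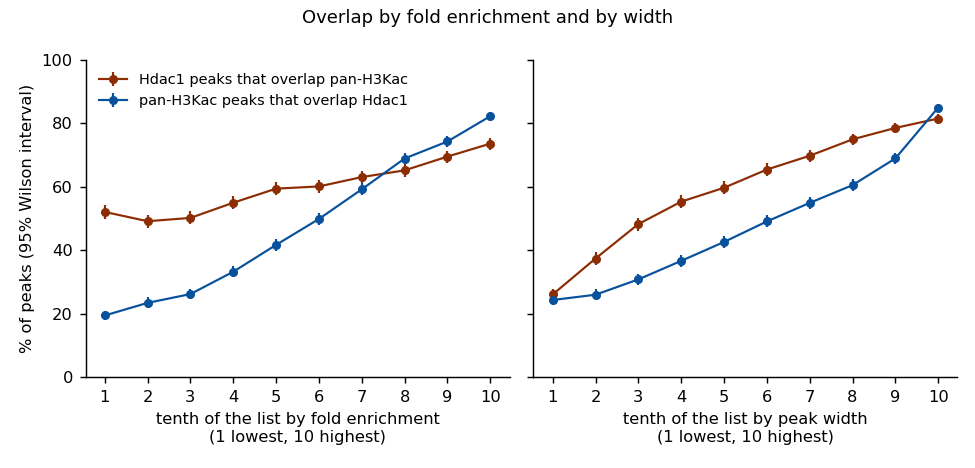
Percentage of Hdac1 peaks that overlap pan-H3Kac and of pan-H3Kac peaks that overlap Hdac1, by decile of each list in fold enrichment (left) and in width (right), with 95% Wilson intervals. By fold the pan-H3Kac curve spans 19.5% to 82.2% and the Hdac1 curve 49.2% to 73.6%.

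The strongest peaks of each set lay by genes of varied function. Of Hdac1 peaks with acetylation, the strongest was 1960 bp from myl9, a myosin light chain gene (Hdac1 fold 21.4, pan-H3Kac fold 22.0, summits 1643 bp apart), and another lay in dhcr7, the last enzyme of cholesterol synthesis (19.9 and 16.3, summits 55 bp apart). Of Hdac1 peaks without acetylation, equally high folds were found 4877 bp from cass4 (22.6), in axin1, a scaffold of the beta-catenin destruction complex (21.9), and 147 bp from mcidas, a regulator of multiciliated cells (20.4). At the top of the pan-H3Kac list, peaks in khsrp, an RNA-binding protein gene, and in yars2, a mitochondrial tRNA synthetase gene, had acetylation folds of 45.7 and 45.2 beside Hdac1 folds of only 4.66 and 7.57. Peaks with no Hdac1 reached 44.3 in sft2d3 and 41.6 in pias3, a SUMO ligase gene.

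Hdac1 peaks with acetylation lay nearer to gene ends. Of these, 45.4% had the summit within 1 kb of an annotated gene end, against 19.4% of Hdac1 peaks without acetylation. For pan-H3Kac the shares were 47.5% with Hdac1 and 23.2% without. Summits more than 10 kb from any gene made up 11.1% of Hdac1 peaks with and 18.7% of those without pan-H3Kac. The annotation gives no strand, so start and end of a gene were not separated. For Hdac1 peaks without whole-embryo pan-H3Kac the gap to the nearest pan-H3Kac peak of that list had a median of 7715 bp (quartiles 2233 and 24964 bp), and 12.3% were within 1 kb.

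Hdac1 peaks without acetylation were found again in the other deacetylase lists. Hdac2 at st10.5 overlapped 98.3% of Hdac1 peaks with and 92.6% of those without pan-H3Kac, and the Hdac1 list of a DMSO library, which has no replicate, overlapped 98.7% and 95.7%. Of the pan-H3Kac peaks without a peak in the untreated Hdac1 list, 48.9% overlapped a peak of that DMSO list, which has 62985 peaks, and 43.7% overlapped Hdac2. At st9, before gastrulation, Hdac1 was already listed at 21.6% of the peaks with and 13.3% of the peaks without st10.5 acetylation, and at st8 at 2.88% and 3.33%. That st9 list has 5136 peaks, and the st9 Hdac1 list of a DMSO library, with 45185 peaks and no replicate, overlapped 91.9% and 74.5%. Sox3, a SoxB1 factor of ectoderm and the maternal embryo, overlapped 42.8% and 29.6% at st9.

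**Figure D3:**
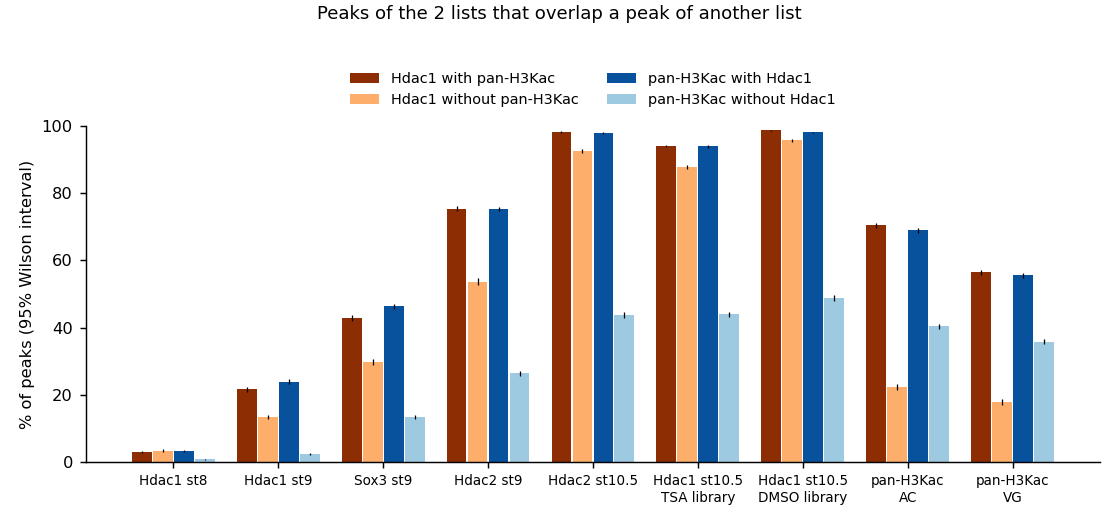
Percentage of Hdac1 peaks with and without pan-H3Kac, and of pan-H3Kac peaks with and without Hdac1, that overlap a peak of each other list, with 95% Wilson intervals. Hdac1 peaks without pan-H3Kac stand at 92.6% for Hdac2 st10.5 but at 22.3% and 17.8% for pan-H3Kac of AC and VG explants, and pan-H3Kac peaks without Hdac1 stand at 43.7% for Hdac2 st10.5.

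Acetylation in dissected explants separated the Hdac1 peaks further. Of those with whole-embryo acetylation, 27.4% overlapped pan-H3Kac in AC alone, 13.4% in VG alone, 43.0% in both and 16.2% in neither. Of those without it, 16.7% were acetylated in AC alone, 12.2% in VG alone, 5.58% in both and 65.5% in neither, so 5955 Hdac1 peaks had no pan-H3Kac in any of these 3 lists. Acetylated peaks found in both explants were the strongest of the whole-embryo list, with a median fold of 13.6 where Hdac1 was present and 9.75 where it was absent. In single libraries of TSA-treated and DMSO-treated whole embryos, which carry no replicate check, the median ratio of Hdac1 fold, TSA over DMSO, could be taken only at peaks found in both libraries. It was 0.746 (quartiles 0.587 and 0.942) at 12617 Hdac1 peaks with pan-H3Kac (7.34 and 9.74). At 7808 peaks without pan-H3Kac it was 0.879 (quartiles 0.661 and 1.185, folds 7.56 and 8.53). The quartile ranges overlapped, and the folds were not scaled between libraries. Over the whole lists the median fold was 4.87 in TSA and 5.17 in DMSO. A further 5.10% of the peaks with and 9.82% of the peaks without pan-H3Kac were in the DMSO list alone. In the TSA list alone were 0.519% and 1.915%.

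Each peak was then given to the nearest annotated gene within 10 kb. A gene can therefore lack a peak in this count and still lie within 10 kb of a peak counted for a neighbour. Of 21749 protein-coding genes, 7929 (36.5%) had peaks of both lists, 1649 (7.58%) Hdac1 only, 3066 (14.1%) pan-H3Kac only and 9105 (41.9%) neither. Over all 26411 annotated genes 8260 had both, and 7466 of them (90.4%) had an Hdac1 and a pan-H3Kac peak on the same bases. The classes also differed in gene length, for which no adjustment was made: the median spans of the protein-coding classes were 24316, 19451, 15851 and 9778 bp in the same order.

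Regulatory genes of the 3 germ layers nearly all had both. Among germ layer genes, both lists reached 17 of 19 matched ectoderm genes, 23 of 26 mesoderm genes and 18 of 20 endoderm genes, against 36.5% of protein-coding genes. All gene lists were written with earlier results of these data known. The exceptions with Hdac1 only were lhx5, a LIM homeobox gene of the anterior neural plate, then myod1 (the myogenic factor), wnt11b (a Wnt ligand) and msgn1 (a presomitic mesoderm factor), and nodal6. Genes with neither were foxi2 and nodal5. At lhx5, 8 Hdac1 peaks with folds of 3.99 to 14.2 lay without a whole-embryo pan-H3Kac peak, but 5 of them overlapped pan-H3Kac of AC explants. At the notochord homeobox gene not, 5 of 6 Hdac1 peaks were acetylated in whole embryos, and the remaining peak, 7122 bp wide with a fold of 15.04, overlapped pan-H3Kac in both explants only.

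Explant acetylation was then counted at the Hdac1 peaks of these lists. Over all 19353 Hdac1 peaks within 10 kb of a gene, 4404 were acetylated in AC alone, 2372 in VG alone and 6654 in neither. Of 115 Hdac1 peaks at ectoderm genes 47 were acetylated in AC alone and 6 in VG alone, and of 73 at endoderm genes 0 in AC alone and 55 in VG alone. Mesoderm genes had 122 Hdac1 peaks, 13 acetylated in AC alone, 26 in VG alone and 66 in neither explant. Around sox17b.1, an endoderm regulator, all 3 Hdac1 peaks were acetylated in VG and none in AC.

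At genes of later organ development and at Hox genes most Hdac1 peaks lay without acetylation. Among 21 later development genes 12 had both, 7 Hdac1 only and 2 neither, and of 56 Hdac1 peaks at them 16 (28.6%, 18.4% to 41.5%) overlapped pan-H3Kac, against 59.7% of all Hdac1 peaks. Over all protein-coding genes 36.5% had both and 7.58% Hdac1 only. Hdac1 only were bsx, pax8, nkx2-5, hand2, olig2, tal1 and ptf1a. The pancreas and hindbrain gene ptf1a had 4 Hdac1 peaks with folds of 6.53 to 19.9, the highest at chr6:26466555-26468572, and none overlapped acetylation in embryos or explants. Of 36 Hox genes 18 had Hdac1 only, 10 both, 1 pan-H3Kac only and 7 neither, and 10 of 49 Hdac1 peaks (20.4%, 11.5% to 33.6%) were acetylated. Around tal1, the blood and endothelial factor, 2 Hdac1 peaks had folds of 4.53 and 4.46 without acetylation.

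At genes of deacetylase complexes and genes named rpl or rps most Hdac1 peaks overlapped pan-H3Kac. The shares were 92.3% and 76.1% (62.1% to 86.1%), against 59.7% of all Hdac1 peaks. The class Hdac1 only holds 7.58% of protein-coding genes, and a count of 0 among 31 genes lies close to that share. Of 31 genes of deacetylase complexes 25 had both, 0 Hdac1 only and 4 pan-H3Kac only, and 48 of 52 Hdac1 peaks there (92.3%) were acetylated. The hdac1 gene had 1 Hdac1 peak with a fold of 3.14 on a 3995 bp pan-H3Kac peak with a fold of 29.3, summits 230.0 bp apart. Of 10 acetyltransferase genes 6 had both, 1 Hdac1 only and 3 pan-H3Kac only. Of 11 housekeeping genes 7 had both, 1 Hdac1 only (gapdh), 2 pan-H3Kac only and 1 neither. At the housekeeping genes 13 of 19 Hdac1 peaks (68.4%, 46.0% to 84.6%) were acetylated, against 59.7% of all Hdac1 peaks. The median Hdac1 fold there was 8.96. Among genes named rpl or rps, mostly ribosomal protein genes, 36 of 76 had both, 35 pan-H3Kac only and 1 Hdac1 only. The S6 kinase genes, which share the name pattern, were dropped after they were seen, while rps19bp1, which is no ribosomal protein, and rpl34p and rps28p9 were still counted. Their median pan-H3Kac fold was 23.3 and their median Hdac1 fold 4.73, against 5.50 and 5.74 over the whole lists.

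**Figure D4:**
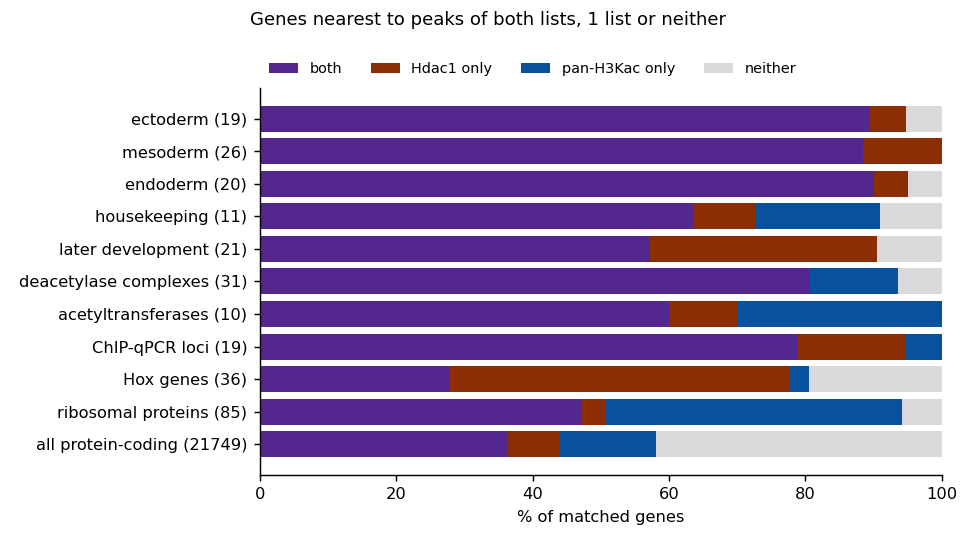
Percentage of the matched genes of each list (number in brackets) in the classes both, Hdac1 only, pan-H3Kac only or neither, beside all protein-coding genes. Each peak counted for its nearest gene only, up to 10 kb from the summit. Ectoderm, mesoderm and endoderm genes are mostly in the class with both, Hox genes most often in Hdac1 only (18 of 36), and the genes of the ribosomal name pattern, 85 with the S6 kinase genes, are split between both and pan-H3Kac only.

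RNA levels in control explants differed between the peak classes. Over 8 control libraries (AC and VG, DMSO and water), the median level of genes with both was 17.2 to 25.7 TPM, of pan-H3Kac only 9.60 to 15.8 TPM, of Hdac1 only 1.24 to 2.07 TPM, and of neither 0 TPM. The class medians did not overlap in these libraries, but the levels of single genes did. In AC DMSO library 1 the quartiles were 2.92 and 73.7 TPM for both and 0.838 and 48.0 TPM for pan-H3Kac only. They were 0.13 and 16 TPM for Hdac1 only, and 0 and 0.35 TPM for neither. Shares of genes at 1 TPM or more were 81.2% to 82.8%, 72.1% to 74.03%, 52.6% to 56.8% and 16.3% to 19.2% in the same order. Genes with both and 1 Hdac1 peak had 19.1 to 28.9 TPM, and those with 5 or more had 15.7 to 21.5 TPM. As a check of the explants, 8 ectoderm markers (foxi1, foxi4.2, sox2, tfap2a, tfap2c, grhl3, dlx3 and kctd15) were higher in every AC library and 9 endoderm markers, sox17a and gata4 among them, in every VG library, with marker sums in VG of 146 to 189 TPM for ectoderm, and in AC of 28.1 to 54.4 TPM for endoderm. Of 4 mesoderm markers (tbxt, myf5, myod1 and tbx6), 2 were higher in every VG library and 0 in every AC library. Their sums were 32.9 to 104 TPM in VG and 5.23 to 18.4 TPM in AC. In the longer ectoderm list, zic2 and gata3 were higher in the DMSO libraries of VG than in those of AC.

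TSA, which blocks the catalytic site of many deacetylases, Hdac1 included, gave more rises than falls among genes with Hdac1 only in AC, and likewise among genes with neither peak. Library totals were 16.9 to 54.4 M expected counts, and fewer cells of a type and less RNA per cell cannot be told apart in such bulk samples. In edgeR's quasi-likelihood test with Benjamini-Hochberg adjustment (adjusted p under 0.05 and fold above 2), 45 of 1313 tested genes with Hdac1 only rose (3.43%) and 4 fell (0.305%), where 1.29% of all 15232 genes rose and 1.00% fell. Of 7615 tested genes with both, 92 rose (1.21%) and 130 fell (1.71%), of 3516 with neither 38 rose (1.08%) and 5 fell (0.142%), and of 2752 with pan-H3Kac only 22 rose and 14 fell. The median log2 fold change was 0.10 for Hdac1 only, 0.06 for neither, -0.02 for both and 0.00 for all genes. Levels in control explants also differed, with class medians of 1.24 to 2.07 TPM for Hdac1 only and 0 TPM for neither. For both they were 17.2 to 25.7 TPM. No adjustment for level was made, and its part in the balance of rises and falls was not tested. Only genes that passed a count filter over the 8 libraries were tested, 1313 of 1782 with Hdac1 only and 3516 of 13052 with neither. A gene near silent in DMSO could enter through its TSA counts, and such a gene could hardly fall. Without the filter, 56 genes with Hdac1 only rose and 4 fell, and of those with both 113 rose and 168 fell. In VG, 0% of all genes rose and 0.0131% fell: edgeR called 0 genes with Hdac1 only, though 60 rose and 25 fell at an unadjusted p under 0.05 and DESeq2 called 42. Fitting only the 4 AC libraries gave 0 edgeR calls in these classes, with 994 genes with both and 193 with Hdac1 only at an unadjusted p under 0.05, and leaving out 1 of the 8 libraries gave 23 to 92 calls for both and 4 to 26 for Hdac1 only, in place of 222 and 49. The difference between AC and VG was called for 12 of the 7615 tested genes with both and 1 of the 1313 with Hdac1 only. It was called for 0 of 2752 with pan-H3Kac only and 0 of 3516 with neither.

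**Figure D5:**
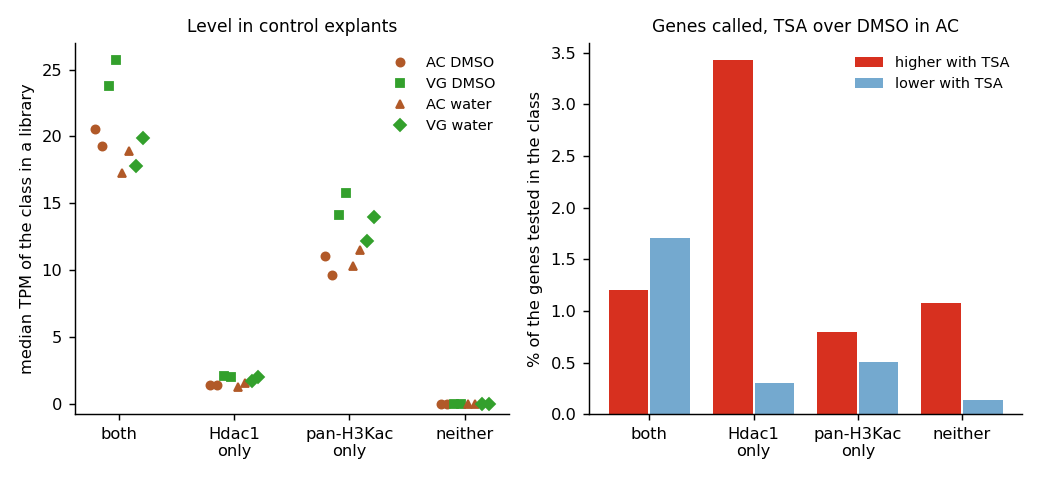
Left, median TPM of each peak class in each control explant library, 8 per class. Right, percentage of tested genes called higher or lower with TSA than with DMSO in AC by edgeR, with the class Hdac1 only at 3.43% higher and 0.305% lower.

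Several genes that rose in AC were of later tissues. The blood factor tal1 had 25.7 and 18.7 CPM in TSA caps and 1.09 and 1.48 CPM in DMSO caps (log2 fold change 4.10 ± 0.37 SE, edgeR adjusted p = 0.00756). The heart and limb factor hand2 had 92.4 and 37.2 CPM in TSA caps, against 3.21 and 2.49 CPM in DMSO caps (4.51 ± 0.54, edgeR adjusted p = 0.0146). The motor neuron and oligodendrocyte factor olig2 had 23.2 and 27.2 CPM, against 1.17 and 2.49 CPM (3.77 ± 0.70, edgeR adjusted p = 0.0464). In all 3 genes the TSA caps lay above both DMSO caps, and ptf1a and pax8 also rose. In VG the log2 fold changes of tal1, hand2 and olig2 were 3.54 ± 0.38, 3.95 ± 0.53 and 3.64 ± 0.70. There edgeR called none of these 3 (edgeR adjusted p = 0.0936, 0.141 and 0.236). For ptf1a and pax8 the VG values were 0.46 and 1.36. In AC, 5 of 16 tested later development genes rose, all of them Hdac1 only, and 3 fell, where 1.29% of all 15232 genes tested rose and 1.00% fell. The list was written with earlier results of these data known, so these counts are not independent of them. Genes of this list that fell included neurog2, a proneural gene, and insm1, a neuroendocrine gene, each with both.

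The largest rises with Hdac1 only were foxq1, acss2.2 and bcam. The forkhead gene foxq1 had 8.07 and 7.83 CPM in TSA caps and 0.130 and 0.0777 CPM in DMSO caps (log2 fold change 6.24 ± 0.88, edgeR adjusted p = 0.0230). The cell adhesion gene bcam had 16.7 and 18.8 CPM in TSA caps, against 0.434 and 0.414 CPM in DMSO caps. For acss2.2, an acetyl-CoA synthetase gene, 72 expected counts in TSA caps stood against 1 in DMSO caps, a ratio of 72.7 (95% exact binomial interval 12.6 to 2910, counting error only). Among genes with both, tbxt.2, a T-box gene of the mesoderm, had 55.9 and 22.9 CPM in TSA caps, against 0.782 and 0.389 CPM in DMSO caps (6.10 ± 0.67, edgeR adjusted p = 0.0112). The adhesion gene cdh12 had 164 counts against 2, a ratio of 82.8 (22.6 to 689).

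Of 19 ectoderm genes tested, 7 fell in AC in edgeR, where 1.00% of all 15232 genes tested fell and 1.29% rose. These were foxi4.2, kctd15, tfap2a, grhl3, dlx3, irx2 and bambi, all with both, as were 17 of the 19. The other ectoderm genes did not pass, with log2 fold changes from -3.39 (dlx5, edgeR adjusted p = 0.0678) to 0.34 (gata3). Among them were foxi1 (-1.90), sox2 (-0.51) and sox3 (-0.08). The median over the 19 genes was -1.90. This list and the others were written with earlier results of these data known. Their shares of rises and falls are therefore not independent of these data. The epidermal homeobox gene dlx3 had 0.320 and 0.153 CPM in TSA caps, against 30.8 and 42.0 CPM in DMSO caps (log2 fold change -7.29 ± 0.56, edgeR adjusted p = 0.0131). The epidermal factor tfap2a had 117 and 74.99 CPM in TSA caps and 526 and 397 CPM in DMSO caps. The sensory neuron gene prdm12, also with both, had 0 counts in TSA caps and 91 in DMSO caps, at least 30-fold lower against a floor of 3 counts over the group. Elsewhere, 5 of 24 mesoderm genes rose and 4 fell, 4 of 20 endoderm genes rose and 1 fell, and 1 of 25 tested Hox genes rose, hoxa9. The median log2 fold change of the 25 Hox genes in AC was 2.46, at low counts and with wide errors. Among those not called, hoxa13 had 6.99 and 2.58 CPM in TSA caps, against 0.869 and 0.674 CPM in DMSO caps (2.63 ± 0.64). For hoxb3 these were 1.56 and 3.25 CPM, against 1.87 and 4.90 CPM (-0.49 ± 0.65). No peak of either list was counted for hoxa9, though an Hdac1 peak was counted for the neighbouring hoxa7.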

How the data were processed

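Per the labels and methods, the authors aligned ChIP-seq reads with Bowtie2 2.4.4 and called peaks with MACS2 2.7.1 against input, keeping Hdac1 peaks by IDR and pan-H3Kac peaks present in both replicates. The deposited lists give fold enrichment (a ratio), −log10 q, a score, and a summit offset. The authors' RNA-seq tables (STAR 2.7.3a, RSEM 1.3.3) hold expected counts and TPM, both as deposited by the authors. The Hdac1 list repeats 115 lines, which were counted once. Peaks overlapped by at least 1 bp. Genes are RefSeq annotation, v10.0 names, nearest within 10 kb of the summit. Expected counts were rounded and fitted with edgeR 4.0.16 (TMM, 15232 genes kept by its filterByExpr count filter, all 8 TSA and DMSO libraries of both tissues, no block), with DESeq2 1.42.0 as alternative, in R 4.3.3. Standard errors were derived from the edgeR F statistic. Scripts in Python 3.11.15 were tested on simulated data. Named peaks were the 5 of highest fold per set. Named genes were list examples and the 3 largest rises and falls with TSA per class. Members and lists were chosen with earlier results of these data known. Promoter sequence and VPA libraries were not used here. The methods call replicates independent. With no block, the p-values measure the spread between replicates, pooled over both tissues. That spread includes any difference that same-numbered TSA and DMSO libraries share. A few genes that these rules select are not reported here.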

Additional observations from a re-analysis of the deposited data

Results flagged for a closer look

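Of 253 named or listed genes tested, 6 had a TSA response that differed between AC and VG by the edgeR interaction term. All 6 had peaks of both lists, and all came from the ectoderm, mesoderm and endoderm lists. In those lists 17 of 19, 23 of 26 and 18 of 20 genes had both. Among all tested genes of the classes, the term was called for 12 of 7615 with both and 1 of 1313 with Hdac1 only. It was called for 0 of 2752 with pan-H3Kac only and 0 of 3516 with neither. The 253 include genes named for the largest TSA changes, and the lists were written with earlier results of these data known. As the log2 fold change in AC minus that in VG, the endoderm factor sox17a gave 5.41 (edgeR adjusted p = 0.00396; AC 5.12, VG -0.28). The same difference was 6.05 for osr1 (edgeR adjusted p = 0.0148; AC 4.59, VG -1.46). For foxc1 it was 3.14 (edgeR adjusted p = 0.0486; AC 2.16, VG -0.98). The other 3, ventral or BMP pathway genes, ran the other way, namely ventx1.1 at -6.37 (edgeR adjusted p = 0.0148), szl at -5.55 (edgeR adjusted p = 0.0168) and bambi at -3.0 (edgeR adjusted p = 0.0376). Of these, sox17a had 87.4 and 67.4 CPM in TSA caps, against 2.26 and 2.18 CPM in DMSO caps, while in VG it had 708 and 666 CPM with TSA and 841 and 829 CPM with DMSO.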

How the results depend on the processing

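Requiring overlap of 50% of the smaller peak, a summit inside the other peak, −log10 q of at least 10, or fold above each list's median gave 52.7%, 46.2%, 57.4% and 52.5% of Hdac1 peaks with pan-H3Kac (59.7%), and 39.7%, 37.1%, 53.2% and 41.0% of pan-H3Kac peaks with Hdac1 (47.9%). The pan-H3Kac fold ratio (1.74) was 1.98, 1.94, 1.62 and 1.25, and the Hdac1 fold ratio (1.12) was 1.06 by summit and 1.07 above the median fold. The summit distance (330 bp) was 280.0 bp with midpoints and 322 bp taken from each pan-H3Kac peak. With only genes at 1 TPM or more, median TPM was 27.1 for both, 8.65 for Hdac1 only, 21.4 for pan-H3Kac only and 2.65 for neither. The order of the 4 classes was the same, and counts of genes per class stayed within 1.5 times.

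TSA calls depended on the fit. In AC for both and Hdac1 only (222 and 49) DESeq2 gave 624 and 115, and in VG (2 and 0) 121 and 42. Without a filter VG had 16 and 5. With only the 4 libraries of a tissue all 4 edgeR counts were 0 (994, 193, 403 and 83 at an unadjusted p under 0.05). Leaving out each library in turn gave 23 to 92 and 4 to 26 in AC, and 0 to 1 and 0 to 0 in VG. With the replicate block the counts were 278, 56, 0 and 0. Same-numbered samples correlated at 0.80 in AC and 0.78 in VG but at -0.10 to -0.05 across tissues, with only 2 pairs per tissue. A replicate block within each tissue, chosen after seeing the data, gave 905, 191, 156 and 40. The cause of these differences was not tested.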
